A study of Mus musculus with 46 samples.

Results

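The mouse miRNAs mmu-miR-691, mmu-miR-764-5p, mmu-miR-184, mmu-miR-346, mmu-miR-469 and mmu-miR-702 are 6 of those measured on a custom array (1336 mouse spots, 4 for each miRNA) in 41 primary mammary tumors of 8 genetically engineered models and in 5 normal mammary glands. They were chosen by their measured difference between the tumor models and normal gland, where their signal barely cleared the background of the array. The contrast of tumors with normal gland was therefore used in the choice and is described below without a test. The spread of the 6 miRNAs among the tumor models was not itself a criterion and was tested. A high value in a single model also raises the difference that chose them, so these tests are not fully separate from the choice.

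The tumors came from individual mice according to the study's text. Each sample was run on 1 array, so p-values measure the spread between tumors, and precision is limited by how many arrays a group has. C3TAg tumors (5, FVB strain) carry the simian virus T antigens under the C3(1) promoter. The p53-/- tumors (7, Balb/C) come from a transplant model in which cre under the mouse mammary tumor virus (MMTV) promoter deletes p53, and Brca1-/-p53+/- tumors (5, 129B6/FVB) come from mice in which MMTV-driven cre deletes Brca1 on a background with a lost copy of p53. The MMTV-C-Myc (4), MMTV-H2N (5, the Her2/neu receptor), MMTV-Hras (5), MMTV-PymT (6, polyoma middle T antigen) and MMTV-Wnt (4) tumors are all FVB and express their oncogene from the MMTV promoter. The normal glands (5) were taken from pregnant FVB mice, and neither the labels nor the study's text says whether each came from a separate mouse. The study treats the first 3 models as basal (17 tumors) and the 5 MMTV oncogene models as luminal (24 tumors). Strain and model cannot be told apart in p53-/- and Brca1-/-p53+/- tumors, nor can transplantation and model in p53-/- tumors, and no gland of the other strains was analysed here.

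A miRNA is cut from a hairpin precursor and guides a silencing complex to messenger RNAs. Pairing runs mainly through the seed, bases 2 to 8 of the mature strand, and it lowers the stability and translation of the target. miR-184 is an old and highly conserved miRNA, best known from the epithelium of the cornea and lens. miR-346 lies within the glutamate receptor gene Grid1, and miR-764 within the serotonin receptor gene Htr2c, together with miR-448. miR-702 is known in the mouse as a mirtron, a miRNA whose hairpin is a spliced short intron rather than a product of the enzyme Drosha.

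The mature sequences are shown because the seed decides which targets each miRNA can pair with and whether members act as a family. The letters come from RefSeq (build GRCm38.p6), are written 5′ to 3′ and carry the seed in capitals. The names miR-691 and miR-764-5p matched exactly, while the array's older names for miR-184, miR-346 and miR-702 give no arm, so both arms are listed for these. No entry was found for miR-469, which is named only.
mmu-miR-691: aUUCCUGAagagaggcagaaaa
mmu-miR-764-5p: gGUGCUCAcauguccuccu
mmu-miR-184-5p: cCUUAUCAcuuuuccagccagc
mmu-miR-184-3p: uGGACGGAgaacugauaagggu
mmu-miR-346-5p: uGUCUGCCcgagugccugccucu
mmu-miR-346-3p: aGGCAGGGgcugggccugcagc
mmu-miR-702-5p: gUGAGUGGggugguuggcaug
mmu-miR-702-3p: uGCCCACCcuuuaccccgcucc

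The 8 sequences had 8 different seeds, so no seed family joined the 5 members with an entry, and miR-469 could not be compared. The 5 miRNAs with an entry lie on 5 different chromosomes. miR-691 lies at chr16:74342005-74342026 on the minus strand, within the span of Robo2, an axon guidance receptor gene. miR-764-5p lies at chrX:147002285-147002303 on the plus strand, within Htr2c. The miR-184 arms lie at chr9:89802263-89802284 (3p) and chr9:89802302-89802323 (5p) on the minus strand, within no other annotated gene. The miR-346 arms lie at chr14:34894624-34894646 (5p) and chr14:34894662-34894683 (3p) on the plus strand, within Grid1, and those of miR-702 at chr5:136991442-136991462 (5p) and chr5:136991520-136991541 (3p) on the plus strand, within Plod3, a collagen-modifying enzyme gene. The GC content of the mature strands ranged from 40.9% for miR-691 to 77.3% for miR-346-3p. The letters of 49 array miRNAs could be matched by exact name, too few to set these values against the whole array.

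Signals are array units, the geometric mean of the 4 spots of a miRNA. The floor of an array is the 5th percentile of its spots, and detection means a signal over 3 times that floor. Background differed between the models. C3TAg arrays had floors from 92.7 to 241 and detected 31 to 85 miRNAs, and p53-/- arrays had floors from 61.4 to 114 and detected 91 to 111. The remaining tumor arrays detected 168 to 304 miRNAs and the normal gland arrays, with floors from 21.3 to 34.6, detected 199 to 236. On every normal gland array and every MMTV oncogene array all 6 epithelial marker miRNAs (the miR-200 family and miR-205) were detected, against 1 to 4 on C3TAg, 5 on p53-/- and 1 to 6 on Brca1-/-p53+/- arrays. Their summed signal spanned 1748 to 533545 units among MMTV-Wnt tumors, against 56622 to 159654 units in normal gland. Markers of other tissues were detected in normal gland as well, with all 4 stromal, all 4 leukocyte, all 3 red cell and all 3 skeletal muscle miRNAs on each array, and 4 to 5 of 7 neural miRNAs. In tissue RNA, fewer cells of a type and less RNA per cell cannot be told apart.

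In normal gland the 6 members lay at or near background. miR-691 was 25.02, 22.7, 31.4, 37.4 and 29.8 units on the 5 glands, which was 1.03 to 1.15 times the floor, the tightest of the 6 to its floor. miR-764-5p reached 1.12 to 1.69 times the floor, miR-184 1.06 to 2.74 times and miR-469 1.51 to 2.40 times, and these 4 miRNAs were detected on 0 of 5 glands. miR-346 was detected in gland 5 (3.75 times the floor) and miR-702 in gland 2 (3.97 times), and in the other glands miR-702 lay between 2.39 and 2.72 times the floor. Lack of detection in the gland was not rare on this array, since 88 miRNAs of the array (26.3%) were detected on 0 glands and 105 (31.4%) on at most 1. Of these 105, 10 were detected on at least 21 of the 41 tumor arrays, and all 6 members are among those 10. The members were chosen by low gland values against the tumors, so this overlap largely restates the choice and nothing is read from it.

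Among the tumors the members were detected in 155 of 246 values (63.0%), against 2 of 30 (6.67%) in normal gland. The low gland share follows from the choice of the members, and values from the same array are not independent. miR-702 was detected in 31 of 41 tumors, miR-764-5p in 29, miR-346 in 28, miR-184 in 23, and miR-691 and miR-469 in 22 each. All 6 were detected together on 11 tumor arrays, among them all 4 MMTV-Wnt arrays, and none on 5, namely C3TAg tumor 4 and p53-/- tumors 1, 2, 4 and 6. MMTV-H2N arrays detected 5 to 6 members and MMTV-PymT arrays 4 to 6, while C3TAg arrays detected 0 to 4 and p53-/- arrays 0 to 3. Of all miRNAs, MMTV-Wnt arrays detected 74.6% to 91.0%, MMTV-PymT arrays 69.2% to 81.1% and MMTV-H2N arrays 55.7% to 75.1%, against 59.6% to 70.7% on normal gland arrays. MMTV-C-Myc arrays detected 51.5% to 63.8% of all miRNAs and 3 to 5 members, and MMTV-Hras arrays 59.9% to 75.4% and 3 to 5 members. Brca1-/-p53+/- arrays detected 50.3% to 82.0% of all miRNAs and 2 to 6 members. C3TAg and p53-/- arrays, with their high floors, detected 9.28% to 25.4% and 27.2% to 33.2% of all miRNAs. The part of general detection in the members' counts was not tested.

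**Figure D1:**
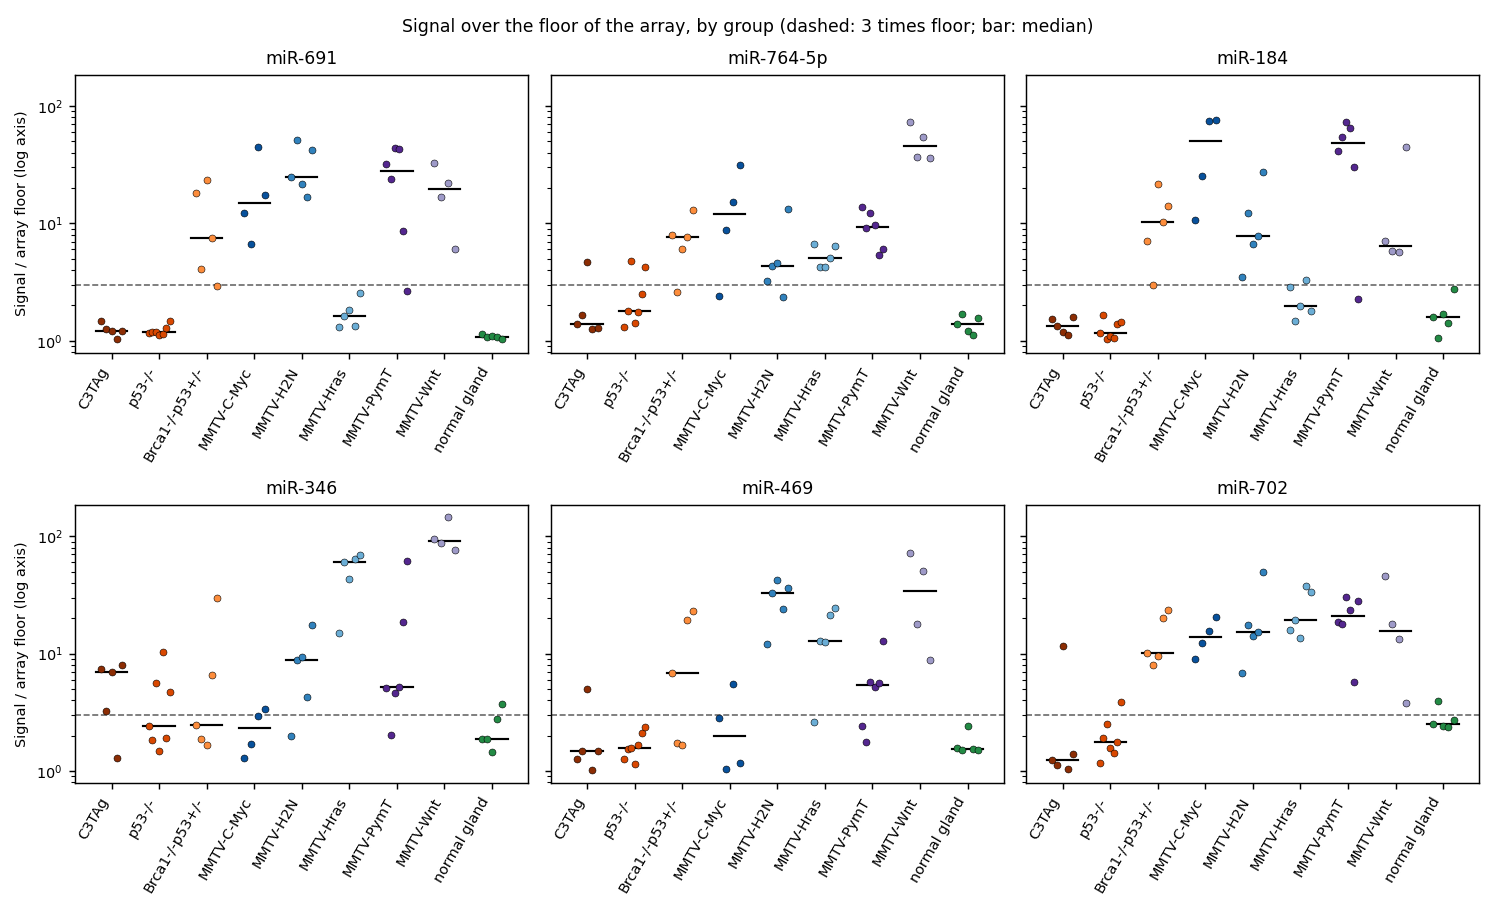
Signal of each member on each array divided by the floor of that array (log axis), with points for arrays, bars for medians, a dashed line at 3 times the floor, and normal gland at the right of the tumor models. Normal gland sits below or just above the line in every panel, miR-764-5p and miR-346 stand highest over the floor in MMTV-Wnt tumors, and miR-691 and miR-184 are near the floor in MMTV-Hras tumors.

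**Figure D2:**
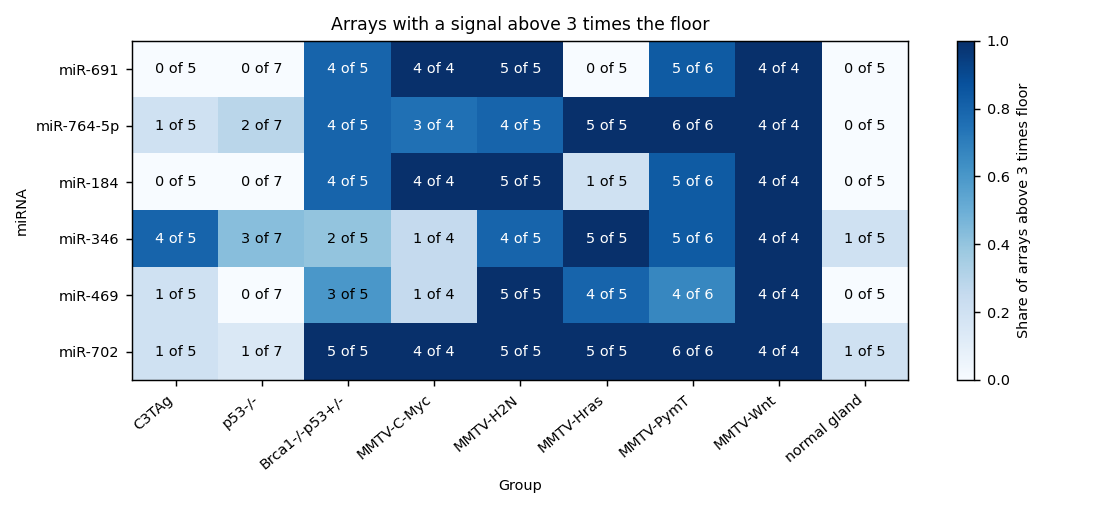
Number of arrays of each group on which a member exceeded 3 times the floor, with shading for the share of arrays. Tumor models run from left and normal gland is the last column, where the counts are 0 or 1 of 5.

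On the median-scaled log2 scale (log2 signal minus the median of the array) the mean of the 8 models exceeded normal gland by 3.40 for miR-691, 3.04 for miR-764-5p, 2.85 for miR-184, 2.80 for miR-346, 2.64 for miR-469 and 2.61 for miR-702. These were the values that chose the members and ranked 1, 3, 4, 6, 7 and 8 among all miRNAs of the array. The median over the members was 2.82, against 0.20 over all miRNAs. Interleaved with them were miR-615 (3.09) and miR-491 (2.82), which are no members and were detected on 5 and 2 glands, and just below the last member came miR-211 and miR-715 (2.45 each), detected on 4 glands and 1 gland. On this scale every tumor array exceeded the highest gland for miR-764-5p (41 of 41), as did 39 for miR-702, 38 for miR-469, 37 for miR-691, 35 for miR-346 and 33 for miR-184. Over the floor miR-764-5p overlapped the glands (up to 1.69 times) in C3TAg (from 1.27 times) and p53-/- tumors (from 1.30 times). Since this contrast chose the members, nothing is read from these counts. The sign of all 6 differences was the same under each scaling tried, but the median was 1.99 on the scale of signal over floor, where that of all miRNAs was -0.63, and 3.97 when arrays were scaled to their brightest miRNAs, where that of all miRNAs was 1.35.

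By model, a member was counted as not overlapping when all tumors of the model lay above all glands on the median-scaled scale. This held for 6 members in C3TAg tumors, where 42.8% of all miRNAs did so, and for 6 in p53-/- tumors (43.7%), which are high shares over the array. It held for 5 members in Brca1-/-p53+/- tumors (22.5% of all miRNAs), 5 in MMTV-C-Myc (25.4%), 6 in MMTV-H2N (17.4%), 4 in MMTV-Hras (4.79%), 3 in MMTV-PymT (6.29%) and 4 in MMTV-Wnt tumors (14.4%). Since the rule used this contrast and the 8 comparisons share the 5 glands, nothing is read from these counts. Where a member was detected in all tumors of a model and in no gland, a lower bound of the ratio was computed on the median-scaled scale. For this the signal of each gland was set at its detection level, 3 times the floor of its array. The bounds hold for that scale alone. miR-184 was at least 29.5-fold higher in MMTV-C-Myc tumors than in normal gland, the highest of these bounds, while its log2 signal over floor averaged 5.13 in MMTV-C-Myc tumors and 0.69 in normal gland. miR-691 was at least 15.1-fold higher in MMTV-H2N and at least 13.4-fold higher in MMTV-C-Myc tumors, miR-469 at least 14.3-fold higher in MMTV-H2N, and miR-764-5p at least 5.58-fold higher in MMTV-Wnt tumors. For miR-691 the spots of an array disagreed widely in these models, as given below.

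The members were then compared among the tumors, every model set against the mean of the remaining 7, models weighted equally (limma, Benjamini-Hochberg adjusted over all miRNAs of the array, threshold 0.05, glands left out). Of 48 pairs of member and model 9 were higher (18.8%) and 10 lower (20.8%), shares below those of all miRNAs over the 8 models (28.8% and 27.4%). In C3TAg tumors 1 member was higher and 0 lower, where 44.0% and 29.6% of all miRNAs were called in these directions. In p53-/- tumors it was 1 and 0 (54.8% and 21.0% of all miRNAs), and in Brca1-/-p53+/- tumors 0 and 0 (15.9% and 23.7%). MMTV-C-Myc tumors had 4 members higher and 1 lower, against 24% and 10.2% of all miRNAs, and MMTV-H2N tumors 2 and 0, against 21.6% and 17.7%. MMTV-Hras tumors had 1 higher and 3 lower (26.0% and 38.9% of all miRNAs), MMTV-PymT tumors 0 and 3 (22.2% and 37.7%) and MMTV-Wnt tumors 0 and 3 (22.2% and 40.7%). Pooled over the 48 pairs, the share of calls among the members was thus no larger than on the array at large. Single models lay on either side of their array share, and 6 members are too few to compare within a model. Of the called pairs, 6 of the 19 called pairs stayed called in the same direction under each of 8 other scalings. In the plot of both scales they keep their side of 0 on each axis. These 6 were miR-184 higher and miR-346 lower in MMTV-C-Myc, miR-691 and miR-469 higher in MMTV-H2N, and miR-691 and miR-184 lower in MMTV-Hras tumors.

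**Figure D3:**
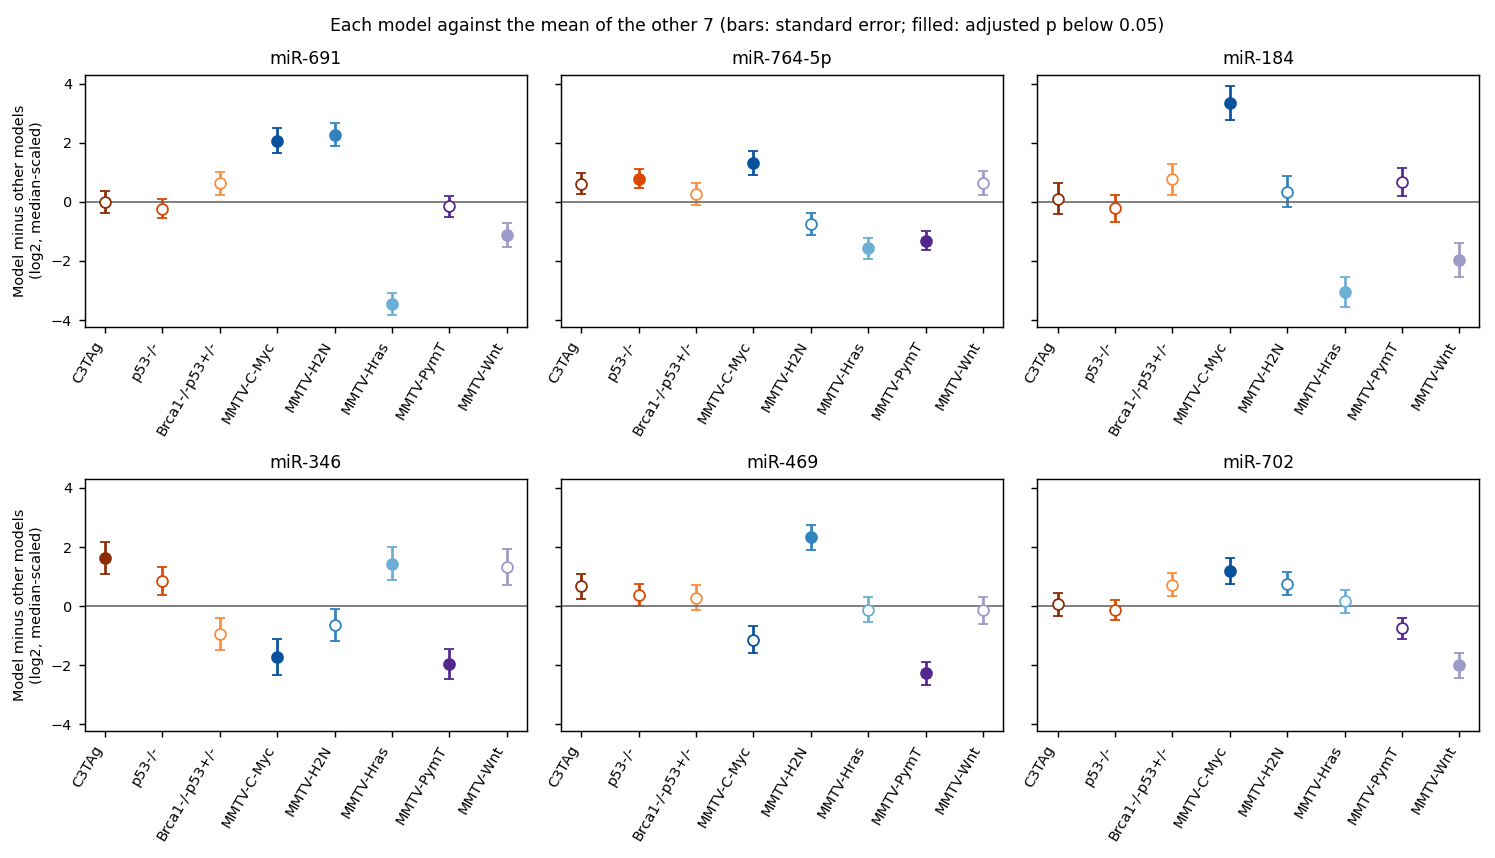
Difference of each tumor model from the mean of the other 7 on the median-scaled log2 scale, 1 panel per member, with standard errors and filled points for an adjusted p below 0.05. The largest differences are those of miR-691 (-3.45) and miR-184 (-3.05) in MMTV-Hras and of miR-184 (3.35) in MMTV-C-Myc tumors.

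miR-691 was present in some oncogene models and at background in others. Its signal was 522, 3117, 663, 608 and 2289 units in MMTV-H2N tumors and 429.6, 267, 1483 and 1068 in MMTV-C-Myc tumors. In MMTV-Hras tumors it was 33.5, 65.7, 58.5, 44.4 and 76.2 units, on 0 of 5 arrays above 3 times the floor, as in normal gland. All H2N and C-Myc tumors thus lay above all Hras tumors. All 3 models are FVB and use the same promoter, and the cause of the difference was not tested. MMTV-Hras tumors were lower than the other models, at -3.45 ± 0.38 (SE) on the median-scaled log2 scale (adjusted p = 1.58e-09), MMTV-H2N tumors 2.28 ± 0.38 higher (adjusted p = 4.62e-06) and MMTV-C-Myc tumors 2.07 ± 0.41 higher (adjusted p = 9.22e-05). As signal over floor (log2) miR-691 averaged 4.84 in MMTV-H2N and 3.99 in MMTV-C-Myc tumors, against 0.75 in MMTV-Hras tumors. The C-Myc difference was 1.31 (adjusted p = 0.0570) without scaling. The 4 spots of miR-691 on an array disagreed widely in the models called higher. Their SDs (log2) were 0.98, 3.41, 2.72, 2.64 and 0.74 in MMTV-H2N tumors. In MMTV-C-Myc tumors they were 1.76, 0.60, 0.92 and 1.59, against 0.08 to 0.16 in normal gland. The signals and fold bounds of these models rest on means of such spots.

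In the other models miR-691 varied widely. MMTV-PymT tumors ran from 89.3 over a median of 776 to 1161 units, and only tumor 6, the faintest, was not detected. MMTV-Wnt tumors had 1252, 539, 559.7 and 163 units and Brca1-/-p53+/- tumors 470.1, 83.4, 834, 1101 and 295 units. All Wnt tumors and 4 of 5 Brca1-/-p53+/- tumors were detected. C3TAg tumors (113 to 291 units) and p53-/- tumors (75.3 to 169 units) lay at 1.03 to 1.49 times their floors, so these signals exceed those of normal gland in units but not in detection. MMTV-Wnt tumors were lower than the other models, at -1.13 ± 0.41 after median scaling (adjusted p = 0.0172). That call was lost without tumor 3 (adjusted p = 0.0601) or tumor 4 (adjusted p = 0.0875). As signal over floor the difference was 1.56 (adjusted p = 0.00380), where the median of all miRNAs in this model was 2.27. miR-691 lay below that median, at a distance that is the same on both scales, which differ only by an offset for each array.

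miR-184, the conserved epithelial miRNA, followed a similar order with C-Myc at the top. It had 373, 1009, 2480.0 and 4598 units in MMTV-C-Myc tumors. In MMTV-PymT tumors it was 1332, 1211, 1717, 1732, 1009 and 76.7 units, so that 5 tumors lay close together and tumor 6 was near the floor. In MMTV-Hras tumors it was 74.2, 59.8, 63.8, 108 and 53.4 units, detected in tumor 4 alone, and in normal gland 34.99, 22.5, 48.1, 48.5 and 79.1 units. All C-Myc tumors were thus brighter than all Hras tumors and all glands. MMTV-C-Myc tumors were 3.35 ± 0.57 higher than the other models (adjusted p = 8.82e-06) and MMTV-Hras tumors lower, at -3.05 ± 0.52 (adjusted p = 4.39e-06).

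The remaining models spread out for miR-184. MMTV-H2N tumors ranged from 73.3 to 1469 units and Brca1-/-p53+/- tumors from 60.9 to 1502, with detection in 5 of 5 and 4 of 5 tumors. MMTV-Wnt tumors had 272, 184, 146 and 1206 units, of which tumor 4 stood apart at 44.9 times the floor while the other 3 lay at 5.74 to 7.03 times. C3TAg and p53-/- tumors had 0 of 12 arrays above 3 times the floor. MMTV-Wnt tumors were lower, at -1.96 ± 0.57 after median scaling (adjusted p = 0.00336), at -2.98 without tumor 4, and at 0.03 without scaling (adjusted p = 0.981). MMTV-PymT tumors were at 0.67 ± 0.48 (adjusted p = 0.233) after median scaling and 2.52 higher (adjusted p = 9.32e-06) as signal over floor.

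miR-346, from the Grid1 locus, was brightest in Wnt and Hras tumors. Its signal was 3677, 2812, 3681 and 2049.5 units in MMTV-Wnt tumors, 76.4 to 144 times the floor, a level over the floor that no other tumor reached. In MMTV-Hras tumors it was 384, 2412, 1381, 2106 and 2049 units, of which tumor 1 was low. In MMTV-C-Myc tumors it was 45.3, 68.5, 97.6 and 204 units, and in normal gland 41.1, 39.9, 41.7, 95.0 and 108 units, so that C-Myc tumors overlapped the glands. MMTV-C-Myc tumors were lower than the other models, at -1.71 ± 0.60 (adjusted p = 0.0230), a call present under each scaling but lost without C-Myc tumor 1 (adjusted p = 0.108), 2 (adjusted p = 0.0526) or 3 (adjusted p = 0.0794), and without the C3TAg and p53-/- arrays (-1.37, adjusted p = 0.0964). MMTV-Hras tumors were 1.44 ± 0.54 higher (adjusted p = 0.0200), with adjusted p = 0.0857 without tumor 2 and 0.0504 without tumor 4.

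The place of MMTV-Wnt tumors for miR-346 depended on the scale, where the arrays had medians of 1735, 925, 1440 and 492.5 units, the first 3 the highest of the series. The difference from the other models was 1.32 ± 0.60 after median scaling (adjusted p = 0.0524) and 4.01 ± 0.61 as signal over floor (adjusted p = 2.38e-07), where the median of all miRNAs was 2.27. C3TAg tumors, with 864, 339, 1674, 171 and 740.3 units and 4 of 5 detected, were 1.62 ± 0.54 higher after median scaling (adjusted p = 0.00775) and at -1.10 as signal over floor (adjusted p = 0.0714), where the median of all miRNAs was -2.17. miR-346 was the single member that most C3TAg tumors held above detection. MMTV-PymT tumors ran from 45.02 over a median of 153 to 2078 units, Brca1-/-p53+/- tumors from 38.5 to 2969 units and p53-/- tumors from 106 over 175 to 813 units. PymT tumors were lower, at -1.95 ± 0.50 (adjusted p = 0.000792), and at -0.10 (adjusted p = 0.873) as signal over floor, where the median of all miRNAs was 1.71.

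miR-764-5p, the Htr2c miRNA, stood out in Wnt tumors by signal. It had 2809, 1167, 1399 and 965 units in MMTV-Wnt tumors, 36.0 to 72.7 times the floor, and no other tumor reached 36.0 times. Normal gland had 30.3, 36.0, 34.9, 38.8 and 45.4 units, the narrowest range in units of any group for this miRNA. After median scaling Wnt tumors did not pass (0.64 ± 0.40, adjusted p = 0.161), while as signal over floor they were 3.33 ± 0.43 higher than the other models (adjusted p = 6.42e-09), against 2.27 for the median of all miRNAs. All 4 Wnt arrays, 2 Hras arrays and 1 C-Myc array carry values of 3 digits where the others carry more. With these 7 as a block the median-scaled Wnt difference was -0.90 (adjusted p = 0.177) for miR-764-5p and 0.79 (adjusted p = 0.516) for miR-346. All Wnt arrays lie in the block, so it was separated from the model only through the Hras and C-Myc arrays.

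miR-764-5p was even across tumors of the Hras and PymT models. MMTV-Hras tumors lay within 138 to 189.8 units and were lower than the other models, at -1.58 ± 0.36 after median scaling (adjusted p = 0.000268). MMTV-PymT tumors lay within 177 to 447 units and were lower, at -1.31 ± 0.34 (adjusted p = 0.000807). Both models were detected on all arrays, and as signal over floor the differences were -0.32 (adjusted p = 0.463) and 0.54 (adjusted p = 0.180). MMTV-C-Myc tumors had 84.7, 353, 507 and 1909.8 units and were 1.32 ± 0.40 higher (adjusted p = 0.00871), a call present under 1 of the 8 other scalings and a value that was 0.65 (adjusted p = 0.268) without tumor 4 and 2.01 (adjusted p = 0.000113) without tumor 1. The p53-/- tumors had 94.1 over a median of 141 to 481 units, with 2 of 7 detected, and were 0.79 ± 0.32 higher (adjusted p = 0.0240). That call was lost without tumor 3 (adjusted p = 0.104) or tumor 7 (adjusted p = 0.0675), the only tumors of the model above detection. As signal over floor the difference was -1.71. It lay below the median of all miRNAs in this model (0.90 and -1.60), by construction at the same distance on both scales.

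miR-469 was called higher in the Her2/neu model. It had 252, 2030.5, 1298, 877 and 1957 units in MMTV-H2N tumors, 12.0 to 42.1 times the floor, against 34.0, 32.1, 68.9, 52.9 and 44.0 units in normal gland. MMTV-C-Myc tumors, in contrast, had 99.4, 41.3, 183 and 71.2 units with 1 of 4 detected. The groups of H2N tumors and C-Myc tumors did not overlap. MMTV-H2N tumors were 2.33 ± 0.42 higher than the other models (adjusted p = 2.32e-05) and 1.61 to 2.52 higher over the other scalings. As signal over floor the log2 means were 4.76 in MMTV-H2N and 4.78 in MMTV-Wnt tumors, with overlapping ranges. MMTV-PymT tumors, from 38.8 over a median of 137 to 430.0 units, were lower, at -2.27 ± 0.39 (adjusted p = 3.27e-06), and at -0.41 (adjusted p = 0.450) as signal over floor.

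The Wnt, Hras and Brca1 models held miR-469 unevenly. MMTV-Wnt tumors had 2773, 572, 1286 and 236 units, MMTV-Hras tumors 66.7, 518, 401, 707 and 726, and Brca1-/-p53+/- tumors 179, 35.4, 58.9, 2864 and 2309. Tumors 4 and 5 of the Brca1 model thus held far more than the other 3, and in array units the same 2 tumors were the highest of that model for miR-346, miR-702, miR-764-5p and miR-184. Over the floor tumor 3 was the highest for miR-184 (21.6 times) and tumor 1 exceeded tumor 4 for miR-764-5p (7.98 against 7.58 times). Their floors, 147 and 100.4 units, were also the highest of the model, against 20.5 to 35.5 in tumors 1 to 3. The p53-/- tumors had 0 of 7 and C3TAg tumors 1 of 5 arrays above detection.

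miR-702, the mirtron, was the member detected most evenly across the oncogene models, though not the most even after median scaling. It was detected in 24 of 24 luminal tumors and in 5 of 5 Brca1-/-p53+/- tumors, against 1 of 5 C3TAg, 1 of 7 p53-/- and 1 of 5 normal arrays. MMTV-Hras tumors had 404, 772, 439.8, 1240.2 and 1003 units and MMTV-C-Myc tumors 313, 488, 522 and 1238, against 54.9, 84.4, 69.8, 82.5 and 78.4 units in normal gland. Neither model overlapped the glands. MMTV-C-Myc tumors were 1.19 ± 0.43 higher than the other models after median scaling (adjusted p = 0.0271), a call lost without tumor 2 (adjusted p = 0.0972) or tumor 4 (adjusted p = 0.186) and present under 1 of the 8 other scalings. MMTV-Wnt tumors, with 1757, 571, 338 and 101 units, were lower, at -2.004 ± 0.43 after median scaling (adjusted p = 0.000103) and at -0.01 (adjusted p = 0.985) without scaling.

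C3TAg tumor 3 differed from the others of its model. It had 2791 units of miR-702, against 118 to 144 in the other 4, 1140.4 units of miR-764-5p, against 119 to 173, and 1206 units of miR-469, against 134 to 155. This array had the highest floor of the series (241 units) and detected 74 miRNAs, within the range of its model, and it detected 4 of the 6 members. miR-691 and miR-184 stayed at 1.21 and 1.18 times the floor in it.

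**Figure D4:**
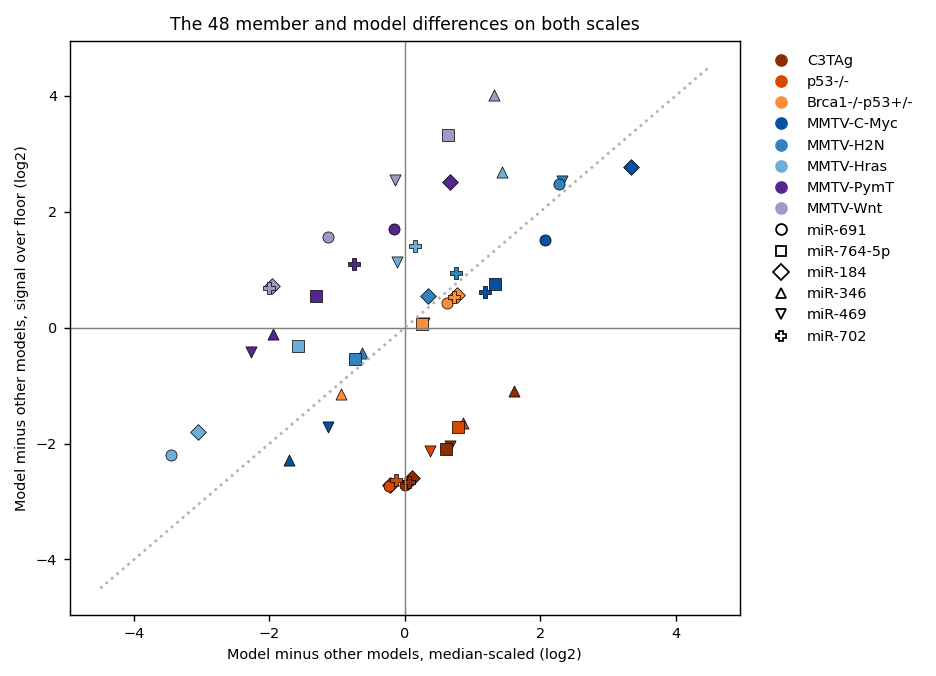
Difference of each model from the mean of the other 7 for each member, median-scaled (x axis, log2) and as signal over floor (y axis, log2), with colours for models, symbols for members and a dotted line of equality. C3TAg and p53-/- pairs lie far below the line and MMTV-Wnt and MMTV-PymT pairs far above it, while miR-184 in MMTV-C-Myc and miR-691 and miR-469 in MMTV-H2N lie high on both axes and miR-691 and miR-184 in MMTV-Hras low on both.

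The next comparison asked whether the members separate basal tumors (17) from luminal tumors (24). Of the 6, 1 was called higher and 0 lower in basal tumors, where 44.6% and 26.0% of all miRNAs were called in these directions around a median of 0.55. miR-764-5p was 0.93 ± 0.33 higher in basal tumors after median scaling (adjusted p = 0.0115). Its signal was 227 units as a geometric mean in basal and 309.8 units in luminal tumors, so the unscaled difference had the opposite sign (-0.45), and it was detected on 7 of 17 basal and 22 of 24 luminal arrays. With the model as a random block its difference was 0.79 (adjusted p = 0.378), and the call was also lost without the p53-/- (adjusted p = 0.0884), MMTV-Hras (0.0729) or MMTV-PymT model (0.0858) and in FVB tumors alone (0.134). The other 5 members were at 0.82 ± 0.48 (miR-346, adjusted p = 0.121), 0.66 ± 0.42 (miR-469, adjusted p = 0.157), 0.29 ± 0.54 (miR-184, adjusted p = 0.654), 0.27 ± 0.34 (miR-702, adjusted p = 0.493) and 0.19 ± 0.49 (miR-691, adjusted p = 0.757). Under changed settings miR-346 was called higher in 10 and turned its sign in 4. Without MMTV-Hras (1.25, adjusted p = 0.0219) and in FVB tumors alone (1.75, adjusted p = 0.0383) miR-346 was called while miR-764-5p was not.

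Detection ran the other way from the scaled values. Basal arrays detected miR-691, miR-184 and miR-469 on 4 of 17, miR-702 and miR-764-5p on 7 and miR-346 on 9, against 18 to 24 of 24 luminal arrays for each member. As signal over floor all 6 members were lower in basal tumors, at -1.70 for miR-764-5p to -2.44 for miR-691, where the median of all miRNAs was -2.08. The members' differences thus had the sign of the median of all miRNAs on both scales. The scales differ only by an offset for each array, which shifts all miRNAs alike. Brca1-/-p53+/- tumors, which the study counts as basal, detected 2 to 6 members, against 0 to 4 in C3TAg and 0 to 3 in p53-/- tumors.

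Over the 41 tumor arrays the members differed in how closely they ran together. miR-691 and miR-184 had a Pearson correlation of 0.74 on the median-scaled scale and of 0.82 as signal over floor. miR-346 and miR-469 had 0.52 and 0.71. miR-691 and miR-346 had -0.56 after median scaling and 0.00 as signal over floor, and miR-184 and miR-346 had -0.48 and -0.04. As signal over floor several other pairs came near miR-346 and miR-469, among them miR-469 and miR-702 (0.69), miR-764-5p and miR-702 (0.68), miR-764-5p and miR-184 (0.63), miR-691 and miR-702 (0.62) and miR-691 and miR-764-5p (0.61). After median scaling these 5 pairs had 0.37, 0.31, 0.46, 0.29 and 0.33. The plot of member pairs shows the first 2 pairs. The points share models and array backgrounds, so these correlations are given as descriptions.

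**Figure D5:**
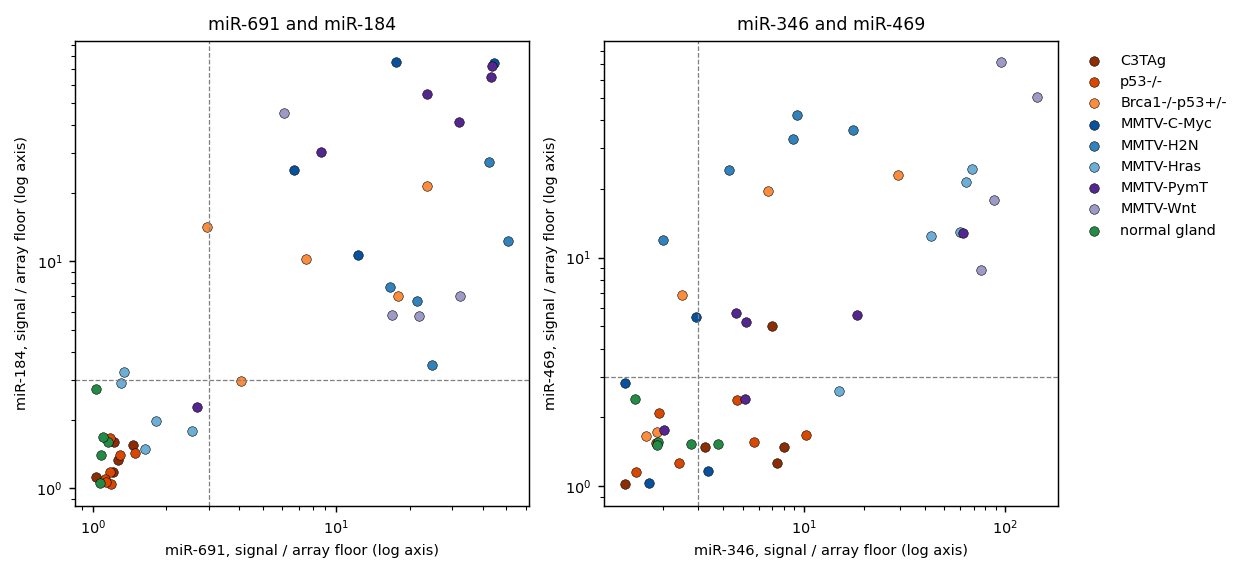
Signal over floor (log axes) of miR-184 against miR-691 (left panel) and of miR-469 against miR-346 (right panel), 1 point per array coloured by group, with dashed lines at 3 times the floor. In the left panel MMTV-C-Myc and most MMTV-PymT tumors lie at the upper right while C3TAg, p53-/-, MMTV-Hras and normal gland arrays lie at the lower left, and in the right panel MMTV-Wnt tumors and 4 of 5 MMTV-Hras tumors lie to the right and MMTV-H2N tumors lie high.

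The miRNAs with the highest correlations to each member were picked over all 46 arrays, glands included, so the low gland values that chose the members enter the pick. The correlations given here are those over the 41 tumor arrays after median scaling. For miR-691 they were 0.72 with miR-491, 0.72 with miR-665 and 0.71 with miR-32, and for miR-184 they were 0.79 with miR-665, 0.76 with miR-491 and 0.79 with miR-546, so that miR-665 and miR-491 were near both. miR-764-5p had 0.87 with miR-715, 0.71 with miR-212 and 0.72 with miR-452. miR-346 had 0.87 with miR-328, 0.82 with miR-483 and 0.75 with miR-673, and miR-469 had 0.91 with miR-294, 0.84 with miR-698 and 0.83 with miR-211. miR-702 had weaker ones, with 0.43 for miR-615, 0.39 for miR-302d and 0.38 for miR-151.

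Genomic and naming neighbours were counted beside the members. Of 3 listed miRNAs of the Htr2c gene (miR-448, miR-764-5p and miR-764-3p), 2 are on the array. Both were called higher in basal tumors after median scaling, as were 44.6% of all miRNAs. miR-448 was 2.95 ± 0.29 higher in basal tumors (adjusted p = 4.44e-12) but was detected on 2 of 17 basal and 2 of 24 luminal arrays and on 0 of 5 glands, and was therefore far more rarely detected than miR-764-5p. The 56 array miRNAs numbered from miR-666 to miR-720, to which miR-691 and miR-702 belong, carry neighbouring registry numbers, which imply no family. Of these 31 were higher and 5 lower in basal tumors (44.6% and 26.0% of all miRNAs) with a median of 1.28, against 0.55 over all miRNAs, and 26 were detected on at most 1 gland (31.4% of all miRNAs). The 4 of this range with the largest values, miR-693-5p, miR-688, miR-713 and miR-717, were detected on 2, 2, 2 and 9 of the 41 tumor arrays, too few for their differences to be measured, against 22 for miR-691 and 31 for miR-702.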

How the data were processed

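RNA of 41 mammary tumors and 5 normal glands was hybridised to a custom Agilent miRNA array designed on an early release of the miRBase registry. The deposited table holds intensity values (Agilent processed signal) that the authors extracted for 1336 mouse spots, 4 for each miRNA. The deposited log2 table was made by the authors from the same intensities by scaling each array to a common median, and served as an alternative. Of the intensity table, 1 column could not be tied to a sample and was left out. The groups follow the sample labels, and the basal and luminal classes follow the study's methods.

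Spots were scaled as log2 intensity minus the array median and averaged per miRNA. Tumors were fitted with limma 3.58.1 (R 4.3.3, statmod 1.5.0) and p-values adjusted by Benjamini-Hochberg over all miRNAs of the array, in place of the study's permutation software and t-test. The floor was the 5th percentile of the spots of an array, and arrays with a miRNA above 3 times the floor were counted. Median scaling raises near-floor signals on arrays that detect few miRNAs, and signal over floor lowers them, so both are given. The scripts were tested on simulated data. Python 3.11.15, numpy 2.4.6, pandas 2.3.3, scipy 1.17.1 and matplotlib 3.10.9 were used.

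Named in the text are the 6 members, for each the 3 miRNAs with the highest correlation, the 4 miRNAs that border the members in the order of tumors against gland, and miRNAs of 2 lists (3 listed miRNAs of the Htr2c gene, and miR-666 to miR-720, at most 4 by size). Marker lists covered epithelium, stroma, leukocytes, red cells, skeletal muscle and neural tissue. Members and lists were chosen with earlier results of these data known. Replicate numbers did not pair the samples.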

Additional observations from a re-analysis of the deposited data

Results flagged for a closer look

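Each of the 6 members was examined in each of the 9 groups, and in 7 of these 54 sets of values 1 tumor lay far from the others on the median-scaled log2 scale, measured as its gap to the nearest other tumor over the range of the set. Chance alone marks about 1 set in 20, and the sets are not independent, since they share arrays and 3 of the 7 come from 1 array. C3TAg tumor 3 was far above the other C3TAg tumors for miR-702 (gap over range 0.917), miR-469 (0.796) and miR-764-5p (0.762). MMTV-PymT tumor 6 was far below the other PymT tumors for miR-184 (0.933), and PymT tumor 1 above them for miR-764-5p (0.688). MMTV-H2N tumor 1 was low for miR-346 (0.732). The p53-/- tumor 2 was low for miR-691 (0.575), in a model where that miRNA lay within 1.12 to 1.49 times the floor.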

How the results depend on the processing

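For basal against luminal tumors, 1 member was higher and 0 lower. The count of higher members was 6 when scaled to the 75th percentile, to the brightest miRNAs or, after floor subtraction, to the 90th percentile. It was 2 with quantile normalization, array weights, the 3-digit arrays as a block, or without the Brca1-/-p53+/-, MMTV-H2N or MMTV-Wnt model. It was 0 without scaling (with or without floor subtraction), as signal over floor, in the brighter miRNAs alone (which hold miR-346 and miR-702), with model as a random block, with model means, and without the p53-/- model, the MMTV-PymT model or the C3TAg and p53-/- arrays together. Lower members numbered 2 without scaling, 3 unscaled after floor subtraction, and 6 as signal over floor. For each model against the others, 9 pairs were higher and 10 lower. The higher pairs numbered 17 (75th percentile), 18 (brightest miRNAs), 17 (floor-subtracted 90th percentile), 15 (array weights), 3 (brighter miRNAs alone) and 3 (the methods' t-test), and the lower pairs 3 among the brighter miRNAs. The members' median over normal gland, 2.82, was 3.63 at the 75th percentile, 2.04 with quantile normalization, 3.97 with the brightest miRNAs, 2.15 unscaled after floor subtraction and 1.99 as signal over floor. Of 30 member values in normal gland, 9 passed at 2 times and 0 at 5 times the floor, against 2 at 3 times.

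Signs turned in these cases, and the cause was not tested. In basal against luminal tumors without scaling the differences were -1.20 (miR-691), -0.45 (miR-764-5p), -1.09 (miR-184), -0.56 (miR-346), -0.72 (miR-469) and -1.11 (miR-702). With the floor subtracted they were -1.84, -0.85, -1.67, -0.78, -1.14 and -1.51 in the same order, and as signal over floor -2.44, -1.70, -2.34, -1.80, -1.97 and -2.36. miR-691 was -0.70 with quantile normalization, -0.17 with the 3-digit block, -0.0096 without Brca1-/-p53+/- and -0.58 without MMTV-Hras. miR-184 was -0.42 with quantile normalization, -0.043 with the 3-digit block, -0.37 without MMTV-Hras and -0.022 without MMTV-Wnt. miR-346 was -0.48 without the C3TAg and p53-/- arrays, and miR-702 -0.038 with array weights and -0.057 without MMTV-Wnt. Among single models, as signal over floor, miR-346 in C3TAg was -1.10, miR-764-5p -1.71 in p53-/- and 0.54 in MMTV-PymT, and in MMTV-Wnt miR-184 was 0.73, miR-691 1.56 and miR-702 0.68. That scale moves all miRNAs of a model alike, with medians of -2.17 in C3TAg, -1.60 in p53-/-, 1.71 in MMTV-PymT and 2.27 in MMTV-Wnt. A value therefore cannot change its side of the model's median, and nothing is read from that side being kept. Without scaling miR-764-5p in p53-/- was -0.86, and in MMTV-Wnt miR-184 was 0.031 and miR-691 0.86. After floor subtraction, unscaled, these 3 were -1.17, 0.24 and 1.06, and miR-702 in MMTV-Wnt was 0.21.

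Leaving out 1 tumor at a time gave 1 to 1 higher and 0 to 0 lower members in basal tumors, 8 to 12 higher and 9 to 11 lower pairs, and leaving out 1 gland gave a median of 2.72 to 2.94. With the replicate block, which joins samples that share only a number (mean correlation 0.03 over 128 same-numbered pairs, against -0.01 over 604 others), the counts were 1, 0, 9 and 10 by direction. The call of miR-764-5p in p53-/- was lost (0.69, adjusted p = 0.0828) and that of miR-346 in MMTV-Wnt gained (1.68, adjusted p = 0.00628). Signal over floor and the omission of the C3TAg and p53-/- arrays were chosen after seeing the data. On C3TAg and p53-/- arrays most miRNAs lie near the floor, which limits what these models show.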
